A study of Mus musculus with 7 samples.

Results

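Red blood cell genes were examined in mouse spleens that had received hepatocytes, the main cells of the liver. The set holds 36 genes of haemoglobin, haem synthesis, the red cell membrane and erythroid transcription. They were chosen by symbol and function, but with earlier results of these data known. All 36 symbols were found among the 22173 genes of the deposited table, and all 36 had a mean of at least 1 FPKM (fragments scaled to transcript length and sequencing depth) over the libraries, the minimum for testing, which 11920 genes passed. RNA was sequenced in 7 spleen libraries of 2 groups. The sHA-X group (n = 4) had received repeated injections of the biomaterial labelled sHA-X, meant to make the spleen a site for liver cells, and the control group (n = 3) was treated with PBS. Hepatocytes were then injected into the spleens of both groups, so the PBS group was injected too, and the spleens were taken 30 days later. Strain, age, sex and the source of the hepatocytes are not given in the sources used here, and the labels do not tie the libraries to individual mice. The p-values therefore measure only the spread between these libraries, which may be technical.

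Red cells develop from precursors that switch on globin genes, the haem pathway and a dedicated membrane skeleton, and lose their nucleus at the end. Haemoglobin joins alpha and beta globin chains with haem, whose synthesis starts and ends in the mitochondrion. In the adult mouse the red pulp of the spleen houses red cell production and also stores and clears circulating red cells, so spleen RNA holds transcripts of precursors and of reticulocytes, the young cells without a nucleus. The transcription factors GATA1, TAL1 and KLF1 act at many of these genes, GATA1 through the core letters GATA and KLF1 through the CACCC box.

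The libraries held between 29543963 and 37141978 reads, as recovered from the FPKM values. A member had between 307 and 563641 reads in a library, so counting error was small beside the spread between libraries. Several libraries stood apart before any comparison was made. PBS replicate 2 held pancreatic acinar transcripts (6 marker genes summing to 574 FPKM, against at most 0.130 FPKM elsewhere). In sHA-X replicate 2, the skeletal muscle markers summed to 157 FPKM, against at most 10.1 FPKM elsewhere. In sHA-X replicates 3 and 4, 6 hepatocyte markers summed to 634 and 666 FPKM, against at most 20.4 FPKM elsewhere. PBS replicate 3 stood apart in the erythroid genes themselves and is shown separately throughout, a choice made with its low values known. B cell (sum of 7 markers at least 1111 FPKM), T cell (sum of 4 at least 89.3 FPKM) and red pulp macrophage markers (sum of 10 at least 1407 FPKM) were present in every library labelled spleen.

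Proximal promoters of genes that the results turn on are printed below, 250 bases before the annotated start, 5′ to 3′, from RefSeq on GRCm38.p6. Capitals mark matches to a GATA word, spelled AGATAA or with G as its last base, T as its first base or both, and to the CACCC box, spelled CCNCNCCC. Both strands were searched, and overlapping matches run together.
Hba-a1 (chr11:32283422-32283671, plus strand): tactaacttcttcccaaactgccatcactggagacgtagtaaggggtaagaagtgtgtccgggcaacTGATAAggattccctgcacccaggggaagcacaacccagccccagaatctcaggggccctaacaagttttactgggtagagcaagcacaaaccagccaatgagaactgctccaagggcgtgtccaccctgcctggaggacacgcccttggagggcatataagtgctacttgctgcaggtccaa
Hbb-bs (chr7:103827929-103828178, minus strand): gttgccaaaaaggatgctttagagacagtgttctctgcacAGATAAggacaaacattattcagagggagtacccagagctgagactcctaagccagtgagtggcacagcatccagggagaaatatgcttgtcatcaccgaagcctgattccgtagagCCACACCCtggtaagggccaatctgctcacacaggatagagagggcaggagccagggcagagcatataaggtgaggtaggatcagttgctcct
Hbb-bt (chr7:103813924-103814173, minus strand): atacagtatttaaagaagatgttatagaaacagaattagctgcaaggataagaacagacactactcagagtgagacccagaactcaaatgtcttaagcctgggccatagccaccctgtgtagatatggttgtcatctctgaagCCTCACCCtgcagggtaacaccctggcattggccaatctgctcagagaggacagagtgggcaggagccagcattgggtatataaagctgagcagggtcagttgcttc
Alas2 (chrX:150547167-150547416, plus strand): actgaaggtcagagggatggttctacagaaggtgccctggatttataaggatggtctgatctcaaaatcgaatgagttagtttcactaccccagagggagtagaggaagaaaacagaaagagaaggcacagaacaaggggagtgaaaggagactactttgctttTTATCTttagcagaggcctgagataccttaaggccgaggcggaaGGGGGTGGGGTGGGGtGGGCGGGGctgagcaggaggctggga
Klf1 (chr8:84901732-84901981, plus strand): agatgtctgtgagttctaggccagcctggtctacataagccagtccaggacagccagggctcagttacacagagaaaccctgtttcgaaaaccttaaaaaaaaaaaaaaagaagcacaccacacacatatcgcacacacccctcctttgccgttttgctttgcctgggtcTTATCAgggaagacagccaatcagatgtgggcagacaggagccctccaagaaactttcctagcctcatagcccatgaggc

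These windows belong to 3 of the 4 adult globin genes, to the gene of the first erythroid haem enzyme and to the regulator used below as a yardstick. Hbb-bs held a GATA word from 210 to 205 bases and a CACCC box from 93 to 86 bases before the start, and Hbb-bt held only a CACCC box, from 107 to 100 bases. Alas2 held a GATA word from 86 to 81 bases and 4 overlapping or adjacent CACCC matches between 42 and 19 bases before the start. Hba-a1 and Klf1 each held 1 GATA word and no CACCC match of this spelling. The last 247 bases before the start of Hba-a1 also occur unbroken in the promoter window of Hba-a2, so these letters do not tell the 2 genes apart. Windows were found for 28 of the 36 genes. A GATA word occurred in 18 of their 33 windows (54.5%), against 26.5% of all 32851 promoter windows, and a CACCC box in 17 (51.5%), against 45.9%. Such matches describe the letters and are not binding sites.

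Of the 36 genes, 1 was lower and none was higher in sHA-X than in PBS spleens by limma on log2(FPKM + 1) at an adjusted p under 0.05. Over all genes tested, 5.03% were lower and 9.3% higher, so the members' share was not above this background. At an unadjusted p under 0.05, 5 members were lower and none was higher, against 11.5% and 18.3% of all genes, so the 5 also lay near the background. The limma-voom fit on the recovered reads called none of them in either direction (5.6% of all genes lower, 8.99% higher). The median difference of the 36 genes was -0.11 on the log2 scale, with a range from -1.11 (Hba-a2) to 0.54 (Car1), against 0.03 for all genes. In whole spleen RNA, a change in the share of red cell precursors and a change in RNA per precursor cannot be told apart.

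The group comparison depended on single libraries, most on those of the PBS group. Without PBS replicate 3, 8 members were lower in sHA-X and none was higher (limma, 18 lower and none higher at an unadjusted p under 0.05, against 12.3% and 20.5% of all genes), and 35 of 36 differences were negative, with a median of -0.74. Of all 11942 genes tested in that fit, 5.33% were lower and 10.6% higher. The 8 were Hba-a1, Hbb-bs, Hbb-bt, Alas2, Epb41, Trim10, Trim58 and Bpgm. PBS replicate 3 was the lowest PBS library for 36 of 36 members, so leaving it out makes every difference more negative. It was set apart with these low values known. The counts and p-values without it, here and for single genes below, follow in part from that choice and are no independent support. Leaving out either other PBS library turned the median the other way, to 0.10 without PBS replicate 1 (15 of 36 differences negative) and to 0.28 without PBS replicate 2 (10 negative), with no member called in either fit by limma. Over all genes, limma called 228 lower and 488 higher of 11944 without PBS replicate 1. Without PBS replicate 2 it called 460 lower and 718 higher of 11934. At an unadjusted p under 0.05, 2 members were lower and none higher without PBS replicate 1 (1054 and 1647 of all genes). Without PBS replicate 2, 2 were lower and 1 higher at that threshold (1347 and 1890 of all genes). With all libraries 22 differences were negative. Among the sHA-X libraries, leaving out replicate 2 or 4 gave medians of 0.01 and 0.03, each with 18 differences negative. Without sHA-X replicate 1 or 3 the medians were -0.22 and -0.28, with 29 and 30 negative.

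**Figure D1:**
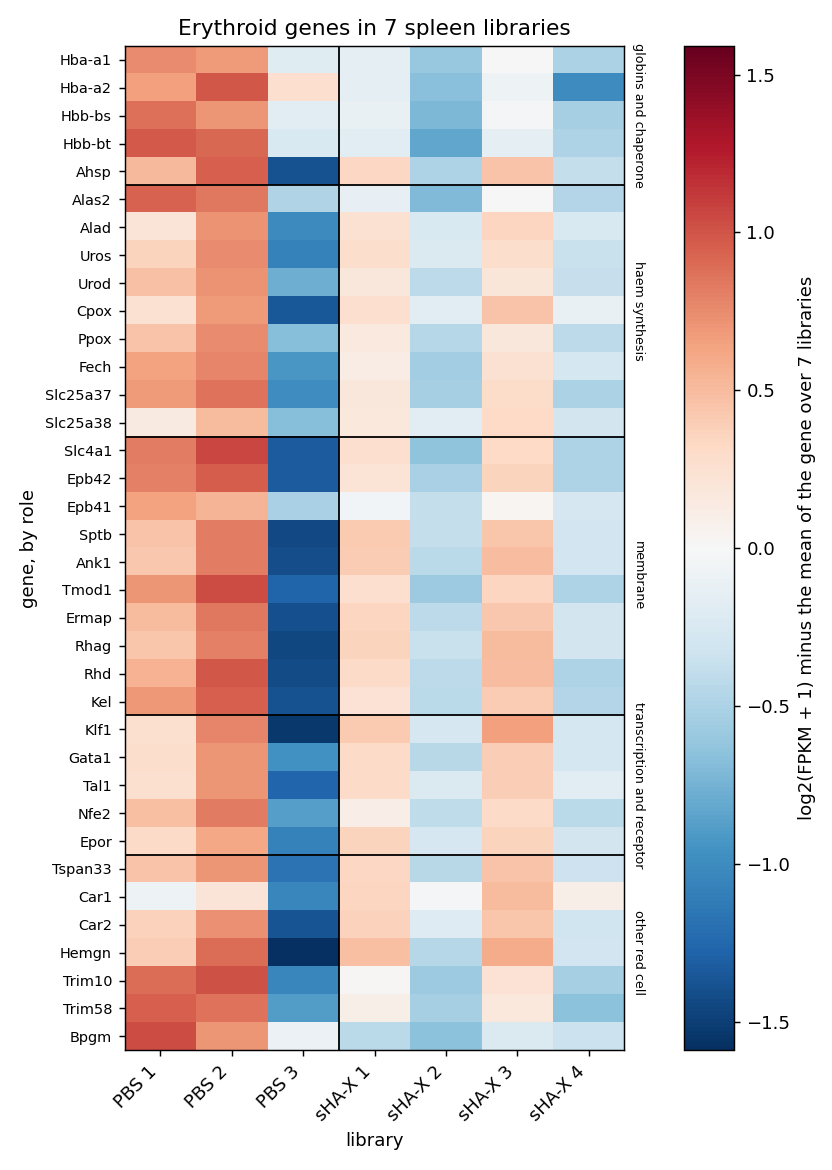
Levels of the 36 erythroid genes (rows, grouped by role) in 3 PBS and 4 sHA-X libraries (columns), as log2(FPKM + 1) minus the mean of each gene over the 7 libraries. PBS 1 and PBS 2 both lie above every sHA-X library for 24 of the 36 genes. PBS 3 is the lowest library for 30, and sHA-X 1 and sHA-X 3 lie above sHA-X 2 and sHA-X 4 for 35.

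The adult globins were the most abundant members. Hbb-bs, the more abundant of the annotated adult beta globin genes (NCBI gene 100503605, chromosome 7, 103826523 to 103827928), reached 27415, 24424 and 13216 FPKM in the PBS libraries (replicates 1 to 3, in this order throughout). The sHA-X libraries (replicates 1 to 4, likewise in order) held 13829, 9139.8, 14627 and 10397 FPKM. PBS replicates 1 and 2 were above every sHA-X library, and PBS replicate 3 lay among them. The group means were 21685 ± 7486 FPKM (SD, n = 3) and 11998 ± 2645 FPKM (SD, n = 4), a difference of -0.81 (SE 0.30, adjusted p = 0.129 by limma), and -1.14 (SE 0.23, adjusted p = 0.0344) without PBS replicate 3. Hbb-bt, its neighbouring beta globin gene (NCBI gene 101488143, chromosome 7, 103812524 to 103813923), was 6778, 6468 and 2914 FPKM in PBS and 3026, 1945, 3099 and 2454 FPKM in sHA-X. It had the same order, with PBS replicate 3 inside the sHA-X range, and differed by -0.96 (SE 0.34, adjusted p = 0.125), or by -1.36 (SE 0.21, adjusted p = 0.0148) without PBS replicate 3.

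The alpha chain is encoded by a pair of near-identical genes, between which the counting may have split reads, so each is uncertain as a single gene. Hba-a1 (NCBI gene 15122, chromosome 11, 32283672 to 32284486) was 15337, 14563 and 7958 FPKM in PBS and 8149.5, 5995, 9113 and 6391 FPKM in sHA-X. PBS replicate 3 again fell within the sHA-X range, and the difference was -0.73 (SE 0.27, adjusted p = 0.129 by limma). Without PBS replicate 3 it was -1.03 (SE 0.19, adjusted p = 0.0244). Hba-a2 (NCBI gene 110257, chromosome 11, 32296492 to 32297310) was 1722, 2181 and 1326 FPKM in PBS and 983, 695, 1036 and 551 FPKM in sHA-X. Here the groups did not overlap, as for 11.5% of all genes in this direction, and Hba-a2 was the member that fell, with means of 1743 ± 428 and 816 ± 232 FPKM and a difference of -1.11 (SE 0.28, adjusted p = 0.0457). The call was close to the threshold. It was kept without sHA-X replicate 3 (adjusted p = 0.0488 by limma) and lost without each other library, at 0.0568 without PBS replicate 3 and 0.144 at most. It was also lost by limma-voom (adjusted p = 0.0548).

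The 4 adult globin genes together made up 11.2%, 10.3% and 5.56% of all FPKM in PBS replicates 1 to 3 and 5.82%, 4.03%, 6.09% and 4.45% in sHA-X replicates 1 to 4. PBS replicates 1 and 2 stood above the rest, and PBS replicate 3 was between sHA-X replicates. The ratio of alpha to beta globin FPKM was similar throughout, between 0.499 and 0.603. Ahsp, whose protein binds free alpha globin chains and keeps them from precipitating, followed another order from the globins it serves. It was 1087, 1473 and 291 FPKM in PBS and 961, 542, 1045 and 587 FPKM in sHA-X, with PBS replicate 3 the lowest of the 7 libraries. The difference was -0.05 (SE 0.63, adjusted p = 0.971 by limma). Ahsp amounted to 3.14% of the alpha globin FPKM in PBS replicate 3 and to between 6.37% and 10.5% in the other libraries.

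**Figure D2:**
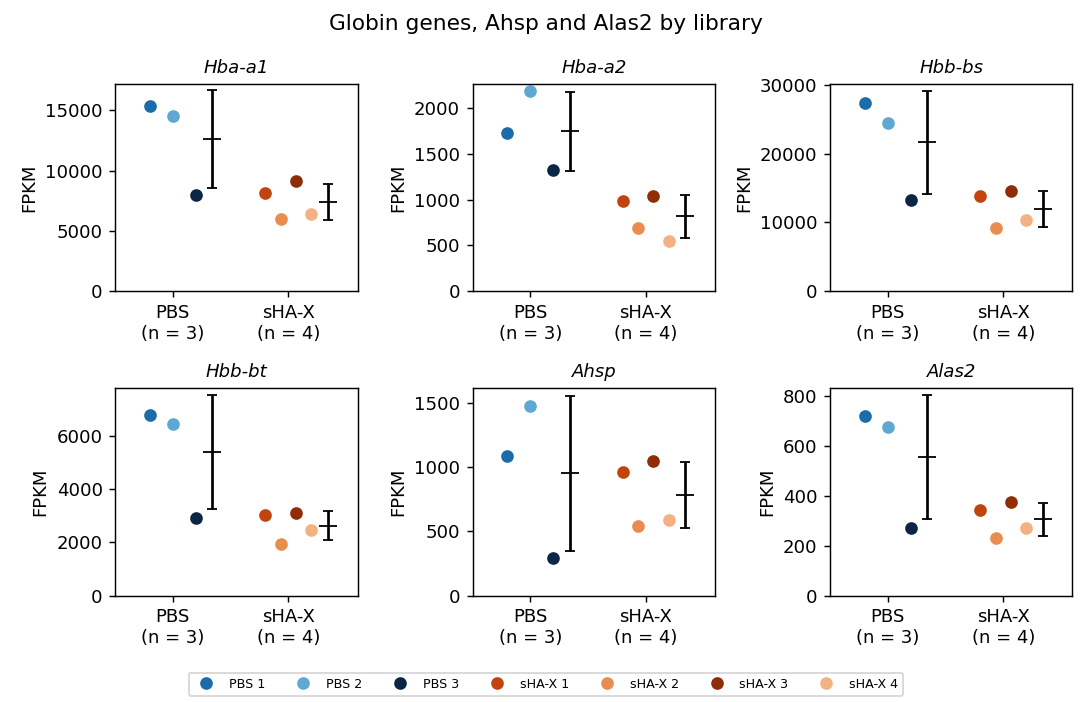
FPKM of the 4 adult globin genes, Ahsp and Alas2 in each library (points), with the mean and SD of the 3 PBS and 4 sHA-X libraries (bars) and axes from 0. For Hba-a1, Hbb-bs, Hbb-bt and Alas2 the dark PBS 3 point lies within the sHA-X range, for Hba-a2 above it and for Ahsp below it.

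None of the 9 haem synthesis genes passed limma with all libraries (0 at an unadjusted p under 0.05, also by limma-voom), and their median difference was -0.24. Alas2, the erythroid aminolevulinate synthase that starts the pathway (NCBI gene 11656, chromosome X, 150547417 to 150570622), was 722, 678 and 270.1 FPKM in PBS and 344, 232, 375 and 273 FPKM in sHA-X. It resembled the globins in that PBS replicates 1 and 2 lay above all sHA-X libraries and PBS replicate 3 among them. Its difference was -0.76 (SE 0.39, adjusted p = 0.266), and -1.22 (SE 0.20, adjusted p = 0.0155) without PBS replicate 3, the only gene of the pathway called in that fit. In the other 8 genes PBS replicate 3 was the lowest of all libraries.

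Fech, the ferrochelatase that inserts iron into the ring as the last step, was 158, 173 and 52.4 FPKM in PBS and 109, 68.1, 119 and 82.7 FPKM in sHA-X. Its difference was -0.28 (SE 0.47, adjusted p = 0.751 by limma), and -0.83 (adjusted p = 0.0698) without PBS replicate 3. Slc25a37, mitoferrin 1, which carries iron into the mitochondrion, was 192, 218 and 59.7 FPKM in PBS and 136, 82.5, 147 and 84.3 FPKM in sHA-X. Both genes thus shared the high PBS replicates 1 and 2 and the low PBS replicate 3. Cpox, the coproporphyrinogen oxidase, gave 93.0, 126 and 30.2 FPKM in PBS and 94.8, 69.2, 107 and 72.2 FPKM in sHA-X, so that PBS replicate 1 lay inside the sHA-X range. Its difference was 0.25 (SE 0.51, adjusted p = 0.800), with the opposite sign from Alas2. Alad, Uros, Urod and Ppox, which act between Alas2 and Fech, and Slc25a38, the mitochondrial glycine carrier, differed by between -0.31 (Ppox) and 0.05 (Alad). Their adjusted p lay between 0.657 and 0.983.

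None of the 10 membrane and blood group genes passed limma with all libraries (0 at an unadjusted p under 0.05, also by limma-voom), and the median difference was -0.11. Slc4a1, the band 3 anion exchanger that anchors the membrane skeleton, was 441, 522 and 99.5 FPKM in PBS and 303, 161, 311 and 177 FPKM in sHA-X. The PBS libraries thus lay on both sides of the sHA-X range, and the difference was -0.32 (SE 0.66, adjusted p = 0.801). Tmod1, tropomodulin, which caps the short actin filaments of the skeleton, was 10.2, 13.1 and 1.83 FPKM in PBS and 7.26, 3.61, 7.71 and 3.89 FPKM in sHA-X. Its highest PBS library was 7.14 times its lowest, the largest such ratio among the 36 genes, where the median of all tested genes was 1.18. Epb41, protein 4.1, had the smallest such ratio of this group (2.28), with 63.9, 59.2 and 28.1 FPKM in PBS and 39.2, 30.9, 41.4 and 33.6 FPKM in sHA-X. It was the only membrane gene called without PBS replicate 3 (-0.76, SE 0.12, adjusted p = 0.00704 by limma), against -0.39 (SE 0.30, adjusted p = 0.452) with it.

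The rest of the membrane group shared its highest and lowest library with Slc4a1. Epb42 (protein 4.2), Sptb (beta spectrin) and Ank1 (ankyrin) link band 3 to the skeleton, and Rhag, Rhd, Kel and Ermap carry or support the Rh, Kell and Scianna blood groups. In all 7, PBS replicate 3 was the lowest library and PBS replicate 2 the highest. Rhd, for example, was 111, 149 and 27.3 FPKM in PBS and 92.8, 55.6, 106 and 52.9 FPKM in sHA-X, a difference of -0.07 (SE 0.65, adjusted p = 0.961). PBS replicate 1 was above all sHA-X libraries for each of them except Ank1 and Rhag.

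None of the 4 transcription factors and the erythropoietin receptor passed limma (0 at an unadjusted p under 0.05, also by limma-voom), and their median difference was 0.09. Klf1, which activates the adult beta globin genes (NCBI gene 16596, chromosome 8, 84901982 to 84905291), was 78.3, 113 and 22.1 FPKM in PBS and 87.7, 54.4, 104 and 53.8 FPKM in sHA-X. PBS replicate 2 was the highest and PBS replicate 3 the lowest of the 7 libraries, and the difference was 0.30 (SE 0.61, adjusted p = 0.801). Gata1, the central factor of the lineage, was 30.4, 41.2 and 12.3 FPKM in PBS and 31.0, 18.0, 33.0 and 20.3 FPKM in sHA-X, a difference of -0.02 (SE 0.46, adjusted p = 0.986). Tal1, its partner, and Epor, through which erythropoietin keeps precursors alive, did not pass either (adjusted p = 0.859 and 0.921). Their values ranged from 12.2 to 50.3 FPKM and from 11.001 to 37.9 FPKM over the 7 libraries. Nfe2, which acts at the globin control regions and also in megakaryocytes, was the only one of the 5 with PBS replicates 1 and 2 both above all sHA-X libraries, at 32.9, 41.9 and 12.2 FPKM in PBS and 24.96, 17.3, 28.8 and 17.0 FPKM in sHA-X (adjusted p = 0.771).

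Gata1, Tal1 and Nfe2 are also expressed by megakaryocytes, and Gata1 by mast cells and eosinophils. Of 12 megakaryocyte and platelet markers, 10 fell (5.03% of all genes) and 2 did not pass, with sums of 478 to 597 FPKM in PBS and 323 to 404 FPKM in sHA-X. PBS replicate 3 held the highest of these sums, unlike its erythroid genes. Of 5 tested mast cell markers 4 rose (9.3% of all genes), and of 4 eosinophil markers 1 fell. The part of these cells in the levels of the transcription factors was not tested.

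The 7 other red cell genes had a median difference of 0.01, and none passed limma (0 higher and 1 lower at an unadjusted p under 0.05). Bpgm, the bisphosphoglycerate mutase that sets the oxygen affinity of haemoglobin (NCBI gene 12183, chromosome 6, 34476356 to 34505136), was 487, 385 and 221 FPKM in PBS and 176, 150.1, 201 and 186 FPKM in sHA-X. All PBS libraries were above all sHA-X libraries, PBS replicate 3 included, as for 11.5% of all genes. This held for 2 of the 36 members (5.56%), Hba-a2 being the other. The means were 364 ± 134 and 178 ± 21.4 FPKM, and the difference of -0.96 (SE 0.27, adjusted p = 0.0644 by limma) missed the threshold. Without PBS replicate 3 it was -1.28 (SE 0.13, adjusted p = 0.00245), the smallest p of the set. Leaving out other single libraries gave adjusted p up to 0.166.

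Trim10 and Trim58 are ubiquitin ligases of late erythroid maturation. Trim10 was 134, 146 and 34.4 FPKM in PBS and 72.8, 47.7, 84.5 and 49.7 FPKM in sHA-X, with a difference of -0.50 (SE 0.57, adjusted p = 0.622 by limma), and of -1.17 (SE 0.26, adjusted p = 0.0406) without PBS replicate 3. Trim58 was 17.6, 16.5 and 4.19 FPKM in PBS and 9.23, 5.66, 9.75 and 5.09 FPKM in sHA-X, and differed by -0.54 (SE 0.53, adjusted p = 0.556 by limma), and by -1.14 (SE 0.27, adjusted p = 0.0414) without PBS replicate 3. For both, PBS replicate 3 was below every sHA-X library and PBS replicates 1 and 2 above.

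The carbonic anhydrases hydrate carbon dioxide in the red cell. Car1 was 131, 159.8 and 66.9 FPKM in PBS and 176, 137, 196 and 149 FPKM in sHA-X. It was the only member whose sHA-X mean lay above that of PBS replicates 1 and 2, and its difference was 0.54 (SE 0.31, adjusted p = 0.312 by limma). Car2 was 541, 695 and 161 FPKM in PBS and 540.1, 363, 569 and 336 FPKM in sHA-X, so that PBS replicate 1 fell inside the sHA-X range. Hemgn, a nuclear erythroid regulator, had the lowest PBS replicate 3 relative to sHA-X, whose mean was 3.42 times as high (121, 171 and 29.7 FPKM in PBS and 128, 66.9, 138 and 74.0 FPKM in sHA-X). Tspan33, a tetraspanin of erythroid precursors, was 74.1, 87.7 and 23.2 FPKM in PBS and 67.8, 39.1, 74.0 and 42.7 FPKM in sHA-X. Neither Car2, Hemgn nor Tspan33 passed (adjusted p between 0.884 and 0.991).

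**Figure D3:**
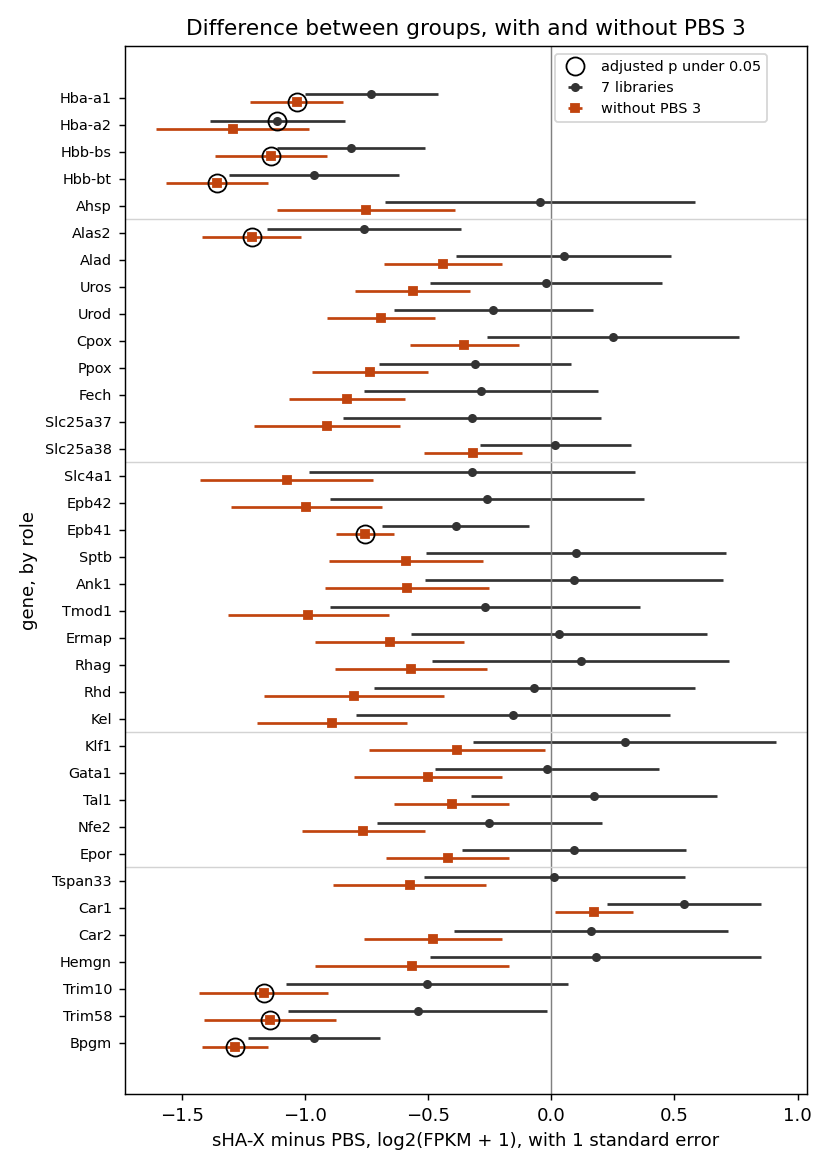
Difference between sHA-X and PBS on the log2(FPKM + 1) scale for each of the 36 genes, with 1 standard error, from limma on 7 libraries (grey circles) and without PBS 3 (orange squares); rings mark an adjusted p under 0.05. With 7 libraries only Hba-a2 is ringed, and without PBS 3 all points but that of Car1 lie below 0 and 8 are ringed.

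The order of the libraries was shared by nearly all members. PBS replicate 3 was the lowest PBS library for 36 of 36 (27.9% of all genes) and the lowest of all 7 for 30 (17.5% of all genes); it was below all sHA-X libraries in 34.2% of all genes. The exceptions were Hba-a1, Hbb-bs, Hbb-bt and Alas2, where it lay within the sHA-X range (34.7% of all genes), and Hba-a2 and Bpgm, where it lay above (31.1%). PBS replicates 1 and 2 were both above all sHA-X libraries for 24 of 36 (17.7% of all genes). Within sHA-X, replicates 1 and 3 were above replicates 2 and 4 for 35 of 36 (19.1% of all genes), Bpgm being the exception, and replicate 3 was the highest for 35 (19.9% of all genes), Uros being the exception. The mean of sHA-X replicates 1 and 3 was 1.602 times that of replicates 2 and 4 in the median member, and 0.984 times in the median of all genes. The mean of PBS replicates 1 and 2 was 3.47 times PBS replicate 3 in the median member, and 0.949 times over all genes. The members are genes of one cell lineage measured in the same libraries, so these counts are not independent observations.

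Cell cycle genes, which dividing erythroid precursors share with other cells, were also lowest in PBS replicate 3. The sum of 8 cell cycle markers was 680, 883 and 366 FPKM in PBS and 696, 571, 743 and 622 FPKM in sHA-X, and none of the 8 passed limma. B cell and red pulp macrophage markers were highest within PBS in the same library, at 1954 FPKM (1634 and 1696 FPKM in the other PBS libraries) and 1843 FPKM (1407 and 1515 FPKM). Between groups, 6 of 7 B cell markers fell (5.03% of all genes) and 10 of 10 red pulp macrophage markers rose (9.3% of all genes). The part of such differences in cell makeup in the erythroid levels was not tested.

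To compare members within a library, each was divided by Klf1 of the same library, a description chosen after the values had been seen. On this scale 19 of 35 members were lower in every sHA-X library than in every PBS library, PBS replicate 3 included, and none was higher. Over all genes 0.881% were lower in this way and 0.52% higher. Klf1 itself differed by 0.30 between groups, against a median of -0.11 for the members, so the division favours lower ratios in sHA-X. Its sHA-X mean was 3.40 times its value in PBS replicate 3, against 2.31 times in the median member. The division thus lifts PBS replicate 3 against sHA-X for members less low there than Klf1. The count of 19 with PBS replicate 3 included follows in part from this denominator. Within PBS, Klf1 varied 5.12-fold, against a median of 1.18 for all genes. Dividing by it spreads genes that do not follow the erythroid order, so the share over all genes is no like background. The 19 comprised Ahsp and all 4 globins, 4 of 9 haem synthesis genes, 7 of 10 membrane genes, Nfe2, Trim10 and Trim58. Hbb-bs was 350, 216 and 599 times Klf1 in PBS and 158, 168, 141 and 193 times in sHA-X. Alas2 was 9.21, 6.002 and 12.2 times Klf1 in PBS and 3.92, 4.26, 3.61 and 5.07 times in sHA-X. Slc4a1 was 5.63, 4.63 and 4.51 times Klf1 in PBS and 3.45, 2.95, 2.99 and 3.29 times in sHA-X. Both groups were thus separate for these 3 genes although their own levels overlapped.

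Not separated relative to Klf1 were Gata1, Tal1, Epor, Cpox, Alad, Uros, Fech, Slc25a38, Epb41, Sptb, Ank1, Tspan33, Car1, Car2, Hemgn and Bpgm. With another denominator the counts differed. Slc4a1 itself differed by -0.32, below the median member, which favours higher ratios in sHA-X. It varied 5.25-fold within PBS, so here too the share over all genes is no like background. Divided by Slc4a1, also chosen after the values had been seen, none of 35 members was lower in every sHA-X library (0.0587% of all genes) and 12 were higher (1.24%). The 12 were Ahsp, Cpox, Sptb, Ank1, Ermap, Rhag, Rhd, Kel, Klf1, Tal1, Car2 and Hemgn. Hbb-bs was 62.2, 46.8 and 133 times Slc4a1 in PBS and 45.7, 56.9, 47.0 and 58.7 times in sHA-X, so that the groups overlapped. Ahsp was 2.47, 2.82 and 2.93 times Slc4a1 in PBS and 3.18, 3.37, 3.36 and 3.31 times in sHA-X. Ahsp was thus lower in sHA-X relative to Klf1 and higher relative to Slc4a1.

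**Figure D4:**
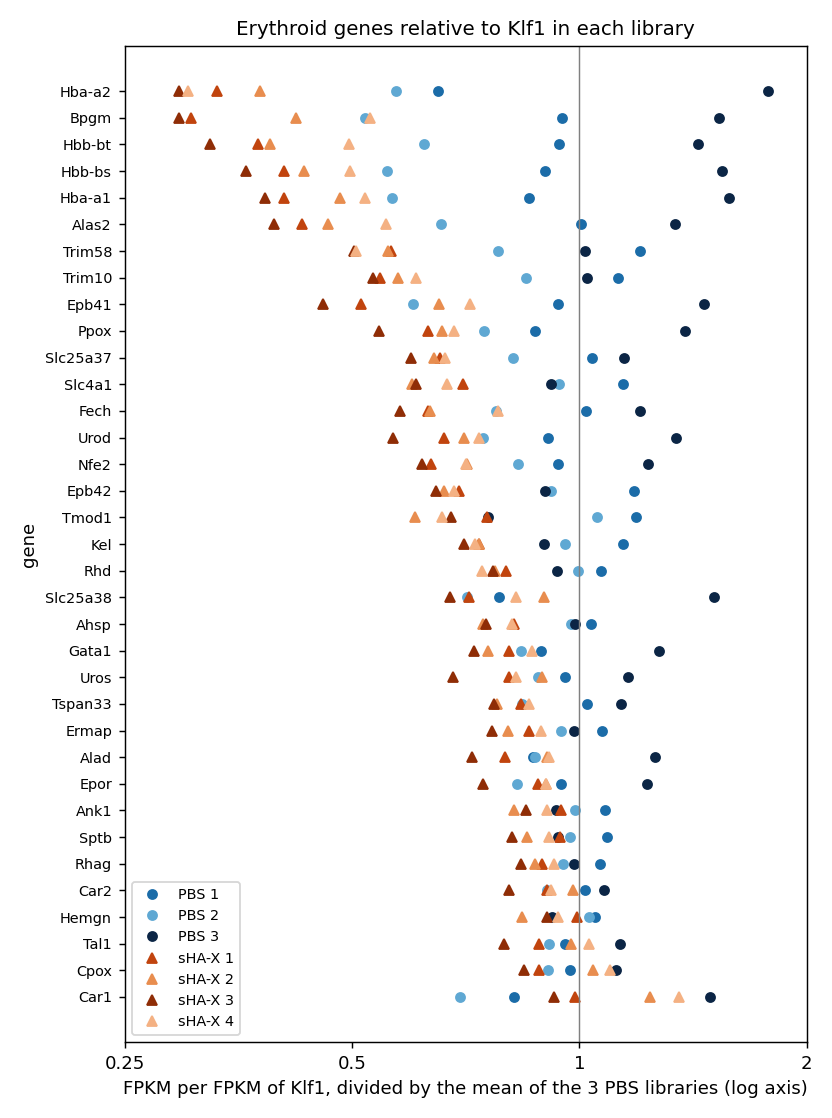
FPKM of each member divided by that of Klf1 in the same library and by the mean of this ratio over the 3 PBS libraries, on a log axis, with PBS libraries as blue circles and sHA-X libraries as orange triangles. Triangles lie left of all circles for 19 of the 35 genes, the globins and Alas2 among them, and mix with the circles for genes such as Tal1, Cpox and Car1.

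A wider list of 48 other erythroid genes was treated in the same way. Of its 44 tested genes, 1 rose, 1 fell and 42 did not pass limma (2 higher and 4 lower at an unadjusted p under 0.05), with a median difference of -0.09. Over all genes 9.3% rose and 5.03% fell, and 18.3% and 11.5% did so at the unadjusted threshold. Myb, a factor of early progenitors that is also expressed by other blood cells, fell from 23.2, 22.2 and 19.3 FPKM to 16.3, 15.004, 17.4 and 14.8 FPKM. The difference was -0.42 (SE 0.08, adjusted p = 0.0130 by limma), with no overlap between groups, as for 11.5% of all genes in this direction. Leaving out PBS replicate 1 ended the call (adjusted p = 0.0658). Gata2, a factor of progenitors and mast cells, rose from 3.10, 3.01 and 3.86 FPKM to 4.59, 4.77, 4.08 and 4.20 FPKM (0.33, SE 0.09, adjusted p = 0.0483). That call was lost without any library except PBS replicate 3 (adjusted p up to 0.171) and by limma-voom (adjusted p = 0.0548). PBS replicate 3 had the highest Gata2 of the PBS libraries, whereas it was the lowest of them for all 36 members. Without PBS replicate 3, 1 gene of the list was higher and 11 were lower, against 10.6% and 5.33% of all genes. PBS replicate 3 was the lowest PBS library for 39 of the 44, so leaving it out lowers those differences. The 4 embryonic globin genes of the list did not reach the minimum for testing, with a highest value of 0.833 FPKM, and Hbb-bh2 was listed at 0 throughout.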

How the data were processed

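Spleen RNA of 3 PBS and 4 sHA-X libraries was extracted with TRIzol and prepared with the VAHTS Universal V6 kit, per the labels' protocols. Tools listed in the submitters' processing notes, without their roles, are HISAT2, HTSeq, fastp, DESeq2 and R 3.2.0, with mm10 as the build. Whether counting used strand was not stated. The authors deposited 1 table of normalized values, which behave as FPKM: each value is a whole number of reads divided by gene length and library total. The table does not name its unit. Whole reads came out within 0.02 reads for 16889 of 16889 genes above 0 in at least 2 libraries. FPKM are shares of a library, so abundant globins affect all other values.

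Members were matched by symbol and tested with limma 3.58.1 (trend, robust; R 4.3.3) on log2(FPKM + 1), group only, over the 11920 genes with a mean of at least 1 FPKM, leaving out 10253. Adjustment followed Benjamini and Hochberg over all these genes, and adjusted p under 0.05 was called. Differences are sHA-X minus PBS, and understate changes of low genes. The procedure was tested on simulated data. All 36 members are named, and of the wider list those called. Members and lists were chosen with earlier results of these data known. Alternatives changed the pseudocount, filter, scaling, variance model, replicate block and libraries. Values were computed with Python 3.11.15 and pandas 2.3.3. Gene positions and promoter sequences are from RefSeq on GRCm38.p6.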

Additional observations from a re-analysis of the deposited data

How the results depend on the processing

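The number of members called lower (1, Hba-a2) was the same with a pseudocount of 0.1, with no filter, with a minimum mean of 5 FPKM and with median of ratios scaling. It was 2 without robust variance (Bpgm and Hba-a2), and 0 when scaled to the sum without the 4 globin genes, by limma-voom and without both second libraries, which carry pancreas and muscle transcripts; the last pair of settings was chosen after seeing the data. Leaving out 1 library gave 0 to 8 members lower, with 8 only without PBS replicate 3, and 0 higher in each case. Over all genes, leaving out 1 library gave 488 to 1263 higher and 228 to 637 lower, the lowest counts without PBS replicate 1, against 1108 and 600 with all libraries. Without both second libraries 492 were higher and 330 lower. The cause of these changes was not tested.

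The labels number the libraries in both groups. Deviations from the group means correlated at 0.15, -0.21 and -0.29 for numbers 1 to 3, and 1 of 3 PBS libraries correlated best with its own number, so the numbers were not taken as pairs. With the replicate number as a block, which rests on the 3 shared numbers, 0 members were lower, 276 genes were higher and 72 lower, and 4 members changed sign (Ahsp 0.073, Uros 0.095, Rhd 0.086 and Gata1 0.074 on the log2 scale). Under the block the adjusted p was 0.255 for Hba-a2, 0.133 for Myb and 0.231 for Gata2. The planned count tests in edgeR and DESeq2 were not run because the deposited unit is FPKM, and limma-voom on recovered reads took their place.

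Signs changed only for differences that had not passed. Under median of ratios scaling these were Slc25a38 -0.0086 and Tspan33 -0.014, and under scaling without the globins Slc25a38 -0.0098 and Tspan33 -0.015. Without both second libraries they were Ahsp 0.57, Uros 0.42, Urod 0.16, Ppox 0.084, Fech 0.17, Slc25a37 0.15, Slc4a1 0.28, Epb42 0.28, Tmod1 0.32, Rhd 0.53, Kel 0.40, Gata1 0.48 and Nfe2 0.19. Over the 7 fits that each leave out 1 library, the ranges of the log2 differences that crossed 0 were Ahsp -0.75 to 0.42, Alad -0.44 to 0.43, Uros -0.56 to 0.35, Urod -0.69 to 0.052, Cpox -0.35 to 0.66, Fech -0.83 to 0.022, Slc25a37 -0.91 to 0.017, Slc25a38 -0.32 to 0.27, Slc4a1 -1.07 to 0.12, Epb42 -0.99 to 0.15, Sptb -0.59 to 0.53, Ank1 -0.58 to 0.52, Tmod1 -0.99 to 0.17, Ermap -0.66 to 0.46, Rhag -0.57 to 0.55, Rhd -0.80 to 0.40, Kel -0.89 to 0.28, Klf1 -0.38 to 0.77, Gata1 -0.50 to 0.33, Tal1 -0.40 to 0.58, Nfe2 -0.76 to 0.090, Epor -0.42 to 0.43, Tspan33 -0.57 to 0.36, Car2 -0.48 to 0.57 and Hemgn -0.56 to 0.68.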

Other observations

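The 2 members of each globin pair did not move in exact step. Hba-a1 was 8.91, 6.68 and 6.003 times Hba-a2 in PBS replicates 1 to 3 and 8.29, 8.63, 8.80 and 11.6 times in sHA-X replicates 1 to 4. The ranges overlapped, and these genes are near-identical. Hbb-bs was 4.04, 3.78 and 4.54 times Hbb-bt in PBS and 4.57, 4.70, 4.72 and 4.24 times in sHA-X, again with overlap.

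The library order of the 36 members was also seen in the 44 tested genes of the wider erythroid list. PBS replicate 3 was the lowest of all libraries for 28 of them (17.5% of all genes), and sHA-X replicates 1 and 3 were above replicates 2 and 4 for 39 (19.1%). PBS replicates 1 and 2 were above all sHA-X libraries for 26 (17.7% of all genes). These genes were measured in the same libraries as the members and are no independent observation of the order.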
